A study of Mus musculus with 6 samples.

Results

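The DOCK and ELMO genes encode the machinery that switches on the small GTPase RAC downstream of chemoattractant receptors, integrins and receptors for dying cells. The members described here are the 8 rows of the deposited gene count table named Dock1, Dock2, Dock4, Dock5, Dock8, Dock10, Elmo1 and Elmo2, of 56748 genes in all. They were chosen by family name with the fold changes of labelled knockout against wild type in these same libraries known, so their differences in that comparison are a description and support nothing by themselves. A further 5 genes of the family, Dock3, Dock6, Dock9, Dock11 and Elmo3, are given beside them.

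The data are bulk RNA sequencing of mouse leukemia driven by MLL-AF9, a fusion oncoprotein of acute myeloid leukemia, and all 6 libraries carry it. Of the libraries, 3 are labelled Rbm5 WT (numbers 25, 27 and 29) and 3 are labelled Rbm5 KO (numbers 31, 32 and 40). RBM5 is an RNA-binding protein of pre-mRNA splicing, and the series asked how it controls the genes with which MLL leukemia renews itself. The labels name whole bone marrow as the source while the protocol also speaks of cultured cells. They give no strain, age or sex, and neither the allele nor the way it was made, and where replicates are not separate animals the p-values measure only the spread between these samples.

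A DOCK protein loads a small GTPase such as RAC or CDC42 with GTP through its catalytic DHR2 domain. DOCK-A and DOCK-B proteins act on RAC and work in a complex with an ELMO protein, which relieves autoinhibition and ties the complex to active RHOG and to engulfment receptors. DOCK-C and DOCK-D proteins work without ELMO, and several of them load CDC42. Active RAC drives branched actin assembly through the WAVE and Arp2/3 complexes, and in leukocytes this underlies migration, adhesion and engulfment. DOCK2 is the main RAC activator of lymphocytes and neutrophils, whereas DOCK1, the founding member also known as DOCK180, is widely expressed outside blood.

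The results turn on Dock1, which was almost silent in wild type, on Dock2, which was abundant in every library, and on Dock3, which moved the opposite way to Dock1. The 250 bases before their RefSeq start sites are shown to compare their promoters. Capitals mark each CG dinucleotide, and sequences run 5′ to 3′ on the strand of the gene (build GRCm38.p6). The Dock1 window lies at chr7:134670437-134670686 on the plus strand, the Dock2 window at chr11:34783906-34784155 on the minus strand, and the Dock3 window at chr9:107231910-107232159 on the minus strand.
Dock1: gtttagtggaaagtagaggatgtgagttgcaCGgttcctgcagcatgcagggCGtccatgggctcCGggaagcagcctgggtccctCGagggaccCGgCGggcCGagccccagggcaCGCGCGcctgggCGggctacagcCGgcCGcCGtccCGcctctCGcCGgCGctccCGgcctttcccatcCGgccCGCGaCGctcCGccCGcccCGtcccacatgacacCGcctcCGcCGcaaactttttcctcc
Dock2: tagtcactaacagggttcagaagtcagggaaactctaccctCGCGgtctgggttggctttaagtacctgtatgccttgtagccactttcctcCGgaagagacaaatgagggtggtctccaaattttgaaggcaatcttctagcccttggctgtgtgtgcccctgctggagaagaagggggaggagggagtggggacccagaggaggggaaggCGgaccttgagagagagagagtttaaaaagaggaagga
Dock3: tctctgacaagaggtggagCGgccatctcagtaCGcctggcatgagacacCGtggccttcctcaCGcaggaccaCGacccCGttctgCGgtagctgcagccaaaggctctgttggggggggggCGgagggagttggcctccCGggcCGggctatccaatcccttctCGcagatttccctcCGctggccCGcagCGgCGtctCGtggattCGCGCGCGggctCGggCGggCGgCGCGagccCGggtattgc

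The Dock1 window held 29 CG dinucleotides at 71.6% G and C, and the Dock3 window 26 at 68.8%. Both were above the upper quartile of 16 for all 32851 RefSeq promoter windows, whose median was 6. The Dock2 window held 4 CG dinucleotides at 52.8% G and C, near the median of 52.4%. Promoter windows were found for 7 of the 8 members (11 windows, all but Dock5). None of these 11 windows held the E-box CACGTG bound by MYC, the PU.1 sequence GAGGAAGT, the RUNX sequence TGTGGT or the C/EBP sequence TTGCGCAA on either strand. Over all windows the shares with these letters were 6.02%, 2.44%, 14.1% and 0.164%. The motifs do not overlap one another, and a window without the letters says nothing about binding of the factor.

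Library totals were 26359299 to 31807588 counts, and 15963 genes passed the filter on low counts, all 8 members among them. Levels are given as CPM, read counts normalised for library size with edgeR's TMM factors. Rbm5 itself was at 227.5, 214.1 and 173.6 CPM in wild type 25, 27 and 29, against 269.0, 266.7 and 245.3 CPM in labelled knockouts 31, 32 and 40. The targeted gene was therefore not lower in the libraries labelled knockout, and "knockout" below stands for that label, on which every direction rests. The Y-linked Ddx3y had 0 counts in each wild-type library and 2645 to 3311 counts in each labelled knockout, so sex and label cannot be told apart. The X-linked noncoding RNA Xist was at 1625, 1363 and 1269 CPM in wild type 25, 27 and 29. In labelled knockouts 31, 32 and 40 it was at 13.0, 192.2 and 32.5 CPM. These libraries thus held Xist unevenly, library 32 the most, and the reason was not tested. Of the blast markers, Cd33, Kit, Mpo, Elane and Spi1 were detected in all libraries. The 9 blast markers summed to 3267 to 3862 CPM in wild type and 4476 to 5628 CPM in the labelled knockouts, where Itgam and Spi1 were called higher and Hoxa9 lower. The summed level of 13 mature neutrophil markers was 619.5 to 2267 CPM in wild type and 8764 to 15861 CPM in the labelled knockouts, and that of 14 monocyte and macrophage markers 1894 to 2738 and 3913 to 6013 CPM.

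Dock1 was the member that differed most between the groups. It had 7, 3 and 8 counts in wild-type libraries 25, 27 and 29 (0.206, 0.104 and 0.254 CPM). In knockout libraries 31, 32 and 40 it had 502, 276 and 458 counts (18.7, 10.6 and 18.7 CPM). Every labelled knockout was far above every wild-type library, and library 32 was the lowest of the 3. The means were 0.188 ± 0.0764 and 15.98 ± 4.70 CPM (SD, n = 3 each), a fold of 82.3 with a 95% interval of 42.8 to 158. The log2 fold change of 6.36 ± 0.41 (SE) lay between 6.08 and 6.62 whichever single library was left out. In bulk RNA, more cells with Dock1 and more Dock1 per cell cannot be told apart.

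Dock1 (ENSMUSG00000058325) lies on chromosome 7 from 134272383 to 134775368 on the plus strand, as the count table places it without naming a build. The 4 annotated genes that overlap it, Insyn2a among them, had 4 counts in all libraries together against 1254 for Dock1. Its nearest tested protein-coding neighbors were Dhx32 on one side, at a log2 fold change of -0.16 (edgeR adjusted p = 0.567), and Ptpre on the other, at 0.00 (adjusted p = 1.00). Neither neighbor passed the test, so no change was called on either side of Dock1. The Dock1 promoter window shown above on GRCm38.p6 falls inside the Dock1 interval of the count table, not before it. The Dock2 window, from 34783906, lies well beyond the end of Dock2 in the count table, at 34674719. Positions from the count table and from the promoter windows are therefore not to be combined.

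The 5 tested protein-coding genes whose profile over the 6 libraries lay nearest to that of Dock1 were Col6a6, Sva, Stfa3, Olfm4 and Stfa2l1. Nearness was the root mean square difference of log2 CPM after centring each gene. It was 0.409 for Col6a6 and 0.922 for Stfa2l1, and the median over 12509 genes was 3.02. That median mostly reflects the group difference of Dock1 itself, since a gene without such a difference lies far from Dock1. The contrast with the median is therefore no evidence of a shared profile beyond a large rise between the groups. Col6a6, a collagen VI chain, was at 0.676, 0.208 and 0.507 CPM in wild type and 29.4, 16.7 and 19.2 CPM in libraries 31, 32 and 40. Its gene lies at 105565008 to 105705359 on chromosome 9, which also holds Rbm5 (107617570 to 107648195). The part of this position in the Col6a6 difference was not tested. Like Dock1, Col6a6 was lowest in library 32 among the labelled knockouts. In wild type the counts of Dock1 were too few to order the libraries. Col6a6 was picked for a near profile in these libraries, so this likeness is no separate result. Its wild-type counts were 23, 6 and 16. Olfm4, a secreted glycoprotein of neutrophil precursors, and the stefin genes Stfa3 and Stfa2l1, inhibitors of cysteine proteases expressed in neutrophils, are far more abundant. Olfm4 went from 86.8 to 1748 CPM on average. Sva had 0 counts in wild type, so its distance depends on the prior count of 2 added before taking logs.

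**Figure D1:**
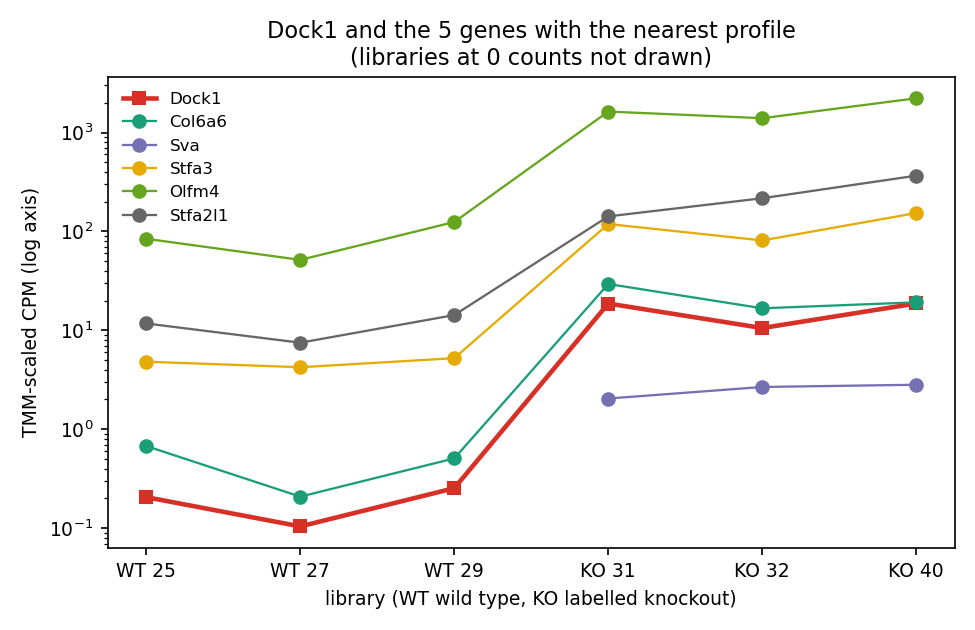
Level in TMM-scaled CPM (vertical axis, logarithmic) of Dock1 and the 5 genes with the nearest centred profile in the 6 libraries (horizontal axis); each point is 1 library. Libraries at 0 counts are not drawn, so the line of Sva starts at knockout library 31. The other lines step up between wild-type library 29 and knockout library 31, and Dock1 goes from 0.104 to 0.254 CPM up to 10.6 to 18.7 CPM.

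Markers of cells that could carry Dock1 gave the following values. Of 9 fibroblast and stromal markers, 4 passed the filter on low counts and 0 were called, at a summed level of 35.6 to 72.0 CPM in wild type and 31.7 to 42.1 CPM in the labelled knockouts. Pdgfrb, a growth factor receptor, made up most of that sum and was lower in each labelled knockout (25.8, 28.7 and 13.4 CPM) than in wild type (68.5, 42.6 and 31.4 CPM), without passing the test. The other 3 tested stromal markers had log2 fold changes above 0 and did not pass either. Among them the collagen gene Col1a1 was at 1.59 to 2.16 CPM in wild type and 2.57, 5.54 and 13.9 CPM in libraries 31, 32 and 40, without overlap. Dcn and Lum, proteoglycans that define fibroblasts, reached at most 0.335 and 0.298 CPM in any library, and Lum was at 0 in 5 of 6. Of 7 endothelial markers, Emcn was at 0 throughout and the sum was 3.53 to 7.78 CPM in wild type and 7.48 to 9.60 CPM in the labelled knockouts. Of 13 mature neutrophil markers, 9 were called higher and 13 had groups that did not overlap. Over all genes 5.45% were called higher and 33.7% had groups that did not overlap. Stfa2l1, one of these markers, was also picked above for a profile near that of Dock1. The neutrophil sum was 619.5, 1577 and 2267 CPM in wild type 25, 27 and 29. In labelled knockouts 31, 32 and 40 it was 10130, 8764 and 15861 CPM. Among the labelled knockouts the neutrophil sum and Dock1 were both lowest in library 32. The sum was highest in library 40, while Dock1 was at 18.7 CPM in both 31 and 40. In wild type Dock1 had 7, 3 and 8 counts, too few to order the libraries. Of 13 tested monocyte and macrophage markers, 3 were called higher and 6 had groups that did not overlap. Of 4 tested megakaryocyte markers and 4 tested erythroid markers, 1 each was called higher. Of 4 tested dendritic cell markers 1 was called lower, and 0 of 6 T and NK and 0 of 3 B cell markers were called. The part of any of these cells in the Dock1 result was not tested.

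The close relatives of Dock1 were abundant in both groups. Dock2, the leukocyte RAC activator (ENSMUSG00000020143, chromosome 11), had 399.1, 424.3 and 444.2 CPM in wild type 25, 27 and 29. Its level in labelled knockouts 31, 32 and 40 was 504.1, 514.9 and 568.9 CPM, so that the groups did not overlap although the difference was small. Its log2 fold change was 0.32 (95% interval 0.11 to 0.54), a fold of 1.25. Dock5, a RAC activator of osteoclasts and myeloid cells that acts with DOCK2 in neutrophils (chromosome 14), was at 133.8, 135.4 and 119.7 CPM in wild type and at 158.7, 179.2 and 209.3 CPM in the labelled knockouts. All labelled knockouts were above all wild-type libraries, with library 40 highest. The Dock5 log2 fold change was 0.49 (95% interval 0.22 to 0.77), and 0.38 without library 40.

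Dock4, a RAC activator of the DOCK-B type, was scarce. It was at 2.50, 4.31 and 2.79 CPM in wild type and at 3.16, 5.62 and 6.41 CPM in the labelled knockouts. The groups overlapped, since wild-type library 27 exceeded knockout library 31, and the log2 fold change of 0.66 had an interval of -0.17 to 1.49.

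Dock8 and Dock10 represent the DOCK proteins that work without ELMO. Dock8 (chromosome 19), a CDC42 activator whose loss causes a human immunodeficiency, was at 466.5, 392.3 and 421.0 CPM in wild type. Labelled knockouts 31, 32 and 40 had 584.6, 524.3 and 559.9 CPM, again without overlap, and its log2 fold change was 0.38 (95% interval 0.15 to 0.62). Dock10 (chromosome 1), a leukocyte DOCK that acts on CDC42 and RAC, was at 239.2, 300.7 and 301.1 CPM in wild type and 333.7, 322.5 and 324.6 CPM in the labelled knockouts. The labelled knockouts lay close together above the wild-type range, but wild-type library 25 alone carried much of the gap. The Dock10 log2 fold change was 0.22 (95% interval -0.03 to 0.48), and 0.12 without library 25.

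Neither ELMO partner among the members passed the test. Elmo1, the partner of DOCK2 in leukocytes (chromosome 13), was at 176.3, 164.2 and 186.4 CPM in wild type and 194.1, 176.3 and 186.3 CPM in the labelled knockouts, and the groups overlapped. Its log2 fold change was 0.08 (95% interval -0.13 to 0.29) and -0.04 when libraries were scaled by total counts alone, a scaling that moved the median of all genes alike, from -0.01 to -0.13. Elmo2, its close homolog (chromosome 2), was at 117.4, 157.4 and 138.0 CPM in wild type and 151.5, 151.4 and 168.7 CPM in the labelled knockouts. These overlapped too, at a log2 fold change of 0.19 (95% interval -0.09 to 0.47). For Elmo1 the interval leaves out a fold above 1.22 in either direction, against the fold of 82.3 for Dock1.

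**Figure D2:**
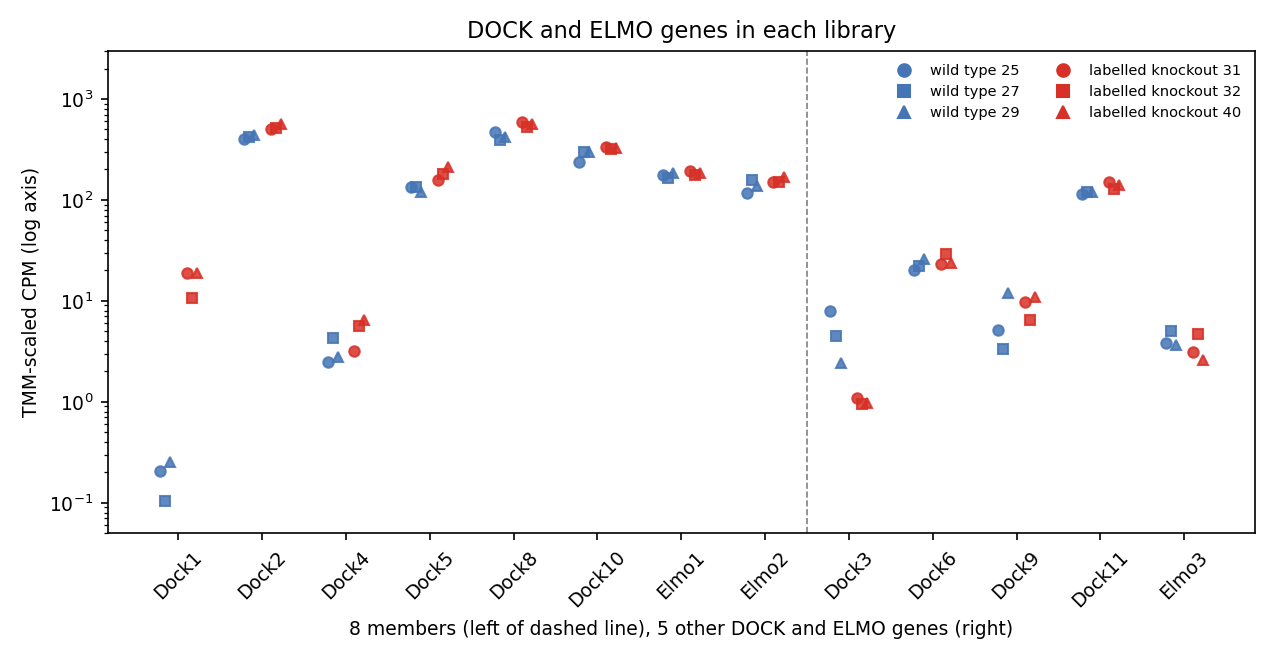
TMM-scaled CPM (vertical axis, logarithmic) of the 8 members and the 5 other DOCK and ELMO genes (horizontal axis) in each library; blue symbols are wild type and red symbols are labelled knockout. Dock1 is the member with a wide gap between colours, from at most 0.254 to at least 10.6 CPM, and Dock3 shows the opposite order.

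Of the 8 members, 2 (Dock1 and Dock5) were called higher and 0 lower by edgeR's quasi-likelihood test at an adjusted p of 0.05 over all genes, and 6 did not pass. Over all 15963 genes, 5.45% were called higher and 3.12% lower, 8.57% in either direction. Groups did not overlap for 5 of 8 members, against 33.7% of all genes tested. Since the members were chosen with this comparison known, nothing is read from these counts. The median log2 fold change was 0.35 over the members and -0.01 over all genes, and all 8 were above 0 with TMM, but Elmo1 was below 0 with total counts. That scaling left 1 member called. Dock5 stayed past the threshold only without library 31 among the 6 fits that left out a library, so the count of called members was 1 without any of the others. DESeq2 called 4 members, Dock2 and Dock8 in addition.

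Of these 5 family genes outside the members, 1 fell and 4 did not pass the test. Dock3, a RAC activator best known from neurons (chromosome 9), was at 7.94, 4.48 and 2.44 CPM in wild-type libraries 25, 27 and 29 against 1.079, 0.956 and 0.981 CPM in labelled knockouts 31, 32 and 40. All labelled knockouts were below all wild-type libraries, which themselves spanned a fold of 3.25. The log2 fold change of Dock3 was -2.30 ± 0.46 (SE, edgeR adjusted p = 0.0249), a level 4.92-fold lower (95% interval 2.37 to 10.2). Its highest adjusted p was 0.0961, without library 40, and it passed in 1 of the 6 fits that left out a library. With all libraries it did not pass in limma-voom (adjusted p = 0.0567). The count table places Dock3 at 106770024 to 107109108 on chromosome 9. It places the targeted Rbm5 on the same chromosome, at 107617570 to 107648195. The part of this nearness in the Dock3 difference was not tested.

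The remaining family genes gave no call. Dock11, an X-linked CDC42 activator, was at 113.7 to 120.2 CPM in wild type and 127.2 to 149.2 CPM in the labelled knockouts (log2 fold change 0.24, edgeR adjusted p = 0.141). Dock6, Dock9 and Elmo3 had log2 fold changes of 0.15, 0.40 and -0.25 with groups that overlapped.

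**Figure D3:**
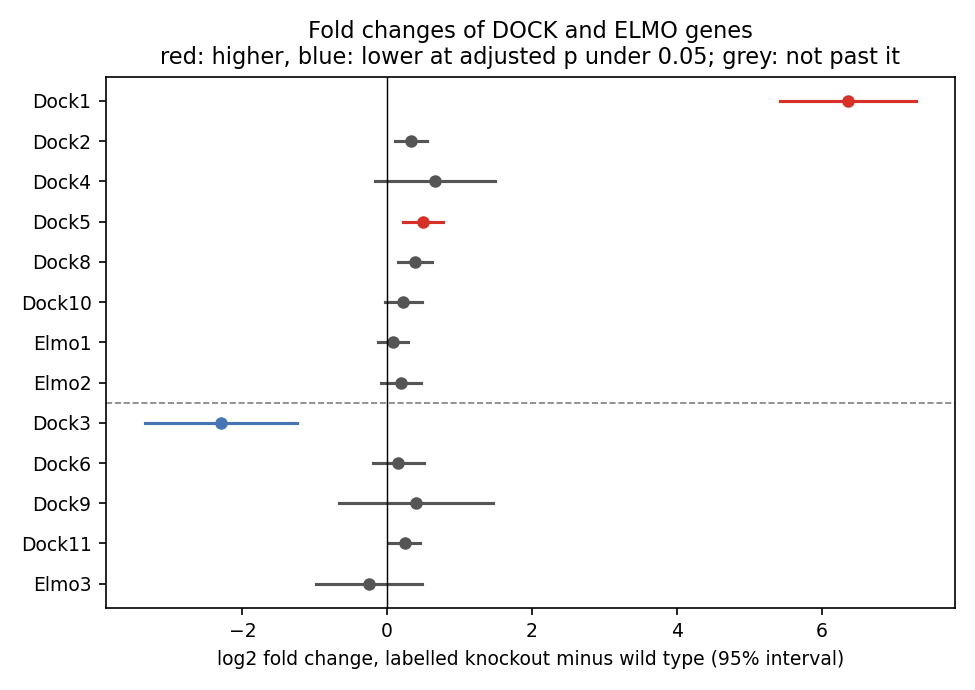
Log2 fold change of labelled knockout minus wild type (horizontal axis) for the 8 members (above the dashed line) and the 5 other family genes; points are estimates, lines are 95% intervals, and red and blue mark genes past the adjusted p of 0.05. Dock1 stands at 6.36 and Dock3 at -2.30, whereas the other 11 estimates lie between -0.25 and 0.66.

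Compared per length, as TPM, the abundance computed here from the counts and the deposited gene lengths, Dock8 and Dock2 led the family in both groups. Dock8 averaged 147.5 ± 16.6 and Dock2 128.5 ± 4.15 TPM in wild type (SD, n = 3), and 171.7 ± 13.8 and 143.6 ± 1.29 TPM in the labelled knockouts. Elmo2 was the third, at 72.0 ± 11.4 and 73.3 ± 0.158 TPM. Dock10 and Elmo1 followed in wild type at 53.3 and 48.5 TPM, with ranges that overlapped each other, then Dock11 at 44.2 and Dock5 at 37.2 TPM. In the labelled knockouts Dock10, Dock11, Dock5 and Elmo1 stood at 55.6, 46.6, 46.3 and 45.8 TPM, and none of these was separated from the next by its range.

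Dock1 had the lowest level per length of these 13 genes in wild type, at 0.0693 ± 0.0258 TPM, below Dock4 at 0.488 TPM. In the labelled knockouts it was the ninth, at 5.29 ± 1.47 TPM, between Dock6 at 8.97 and Elmo3 at 3.14 TPM, and its range overlapped that of Elmo3. Dock3 went from 1.21 ± 0.718 TPM to the last place at 0.216 ± 0.0225 TPM. Beside the 7 leading genes of the family Dock1 remained scarce. Its share of the summed TPM of the 8 members was 0.0144% ± 0.00575 in wild type and 0.974% ± 0.261 in the labelled knockouts, where Dock2 held 26.5% and Dock5 8.56%. The sum of the 3 DOCK-A genes was 165.8 ± 7.25 TPM in wild type and 195.3 ± 4.36 TPM in the labelled knockouts, and most of that difference came from Dock2 and Dock5. The sum of the 3 ELMO genes was 124.7 ± 10.6 and 122.3 ± 3.87 TPM. TPM was computed without the TMM factors, so small differences between groups can change sign. Elmo1 averaged 48.5 and 45.8 TPM, but 175.6 and 185.6 TMM-scaled CPM, in wild type and labelled knockouts.

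**Figure D4:**
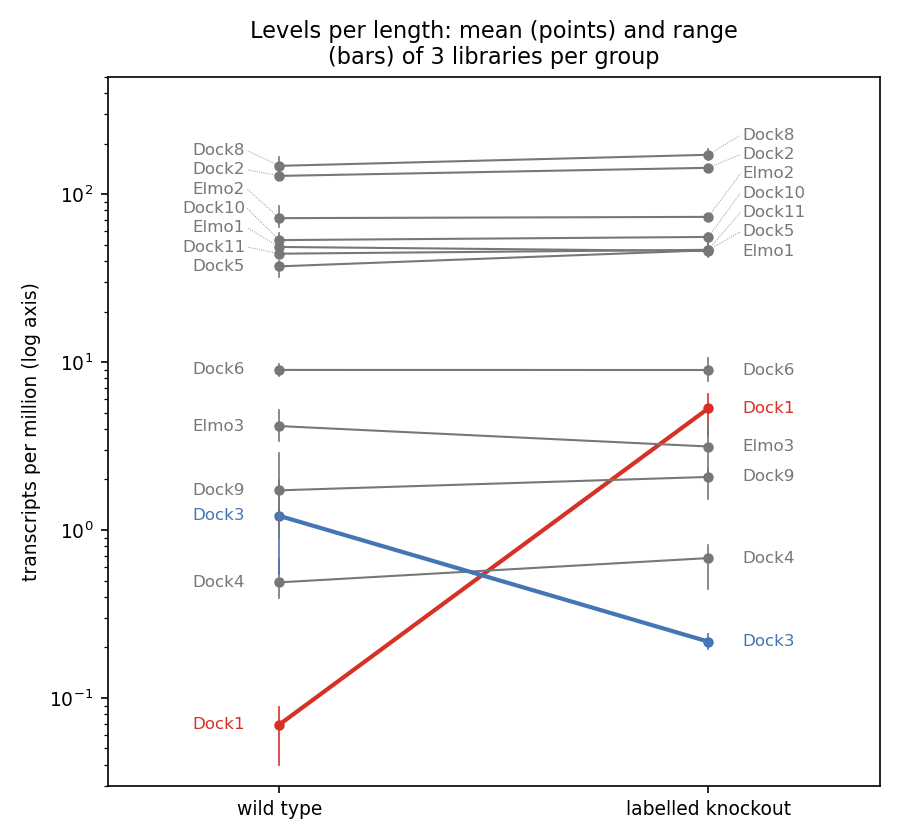
Mean TPM (vertical axis, logarithmic) of the 13 family genes in wild type and labelled knockout, with bars for the range of 3 libraries per group; dotted lines only tie names to points. Dock1 climbs from 0.0693 to 5.29 TPM and Dock3 drops from 1.21 to 0.216 TPM, while the order of the leading genes Dock8, Dock2, Elmo2 and Dock10 is kept.

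The other genes of the RAC pathway were taken from 8 textbook lists of 111 genes, of which 97 passed the filter. Of these, 16 rose, 3 fell and 78 did not pass edgeR's test over all genes. These are 16.5% and 3.09% of the genes, beside 5.45% and 3.12% of all genes; the lists too were chosen with earlier results known. Among genes with a mean of at least 10 CPM, a limit chosen after the data were seen, 15 of 79 pathway genes rose (19%) beside 7.22% of 9309 genes. The median log2 fold change was 0.22 over the 97 and -0.01 over all genes. With total counts these medians were 0.10 and -0.13, so both moved down alike, and 6 pathway genes rose. Leaving out wild type 25, 27 and 29 in turn, 6, 7 and 6 rose and 0, 1 and 2 fell. Leaving out labelled knockouts 31, 32 and 40 in turn, 6, 10 and 5 rose and 0, 2 and 0 fell. Neutrophil marker sums, given above, moved with the groups, and their part in these counts was not tested.

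Among the 5 GTPases on which DOCK proteins act or which recruit them, Rac2 and Cdc42 rose and 3 did not pass. For comparison, 5.45% of all genes tested rose and 33.7% had groups that did not overlap. Rac2, the RAC of blood cells, was at 860.5, 775.7 and 813.7 CPM in wild type and 1068, 1068 and 1228 CPM in the labelled knockouts, without overlap, a rise of 0.46 ± 0.10 (SE, log2; edgeR adjusted p = 0.0349). Cdc42 had a log2 fold change of 0.37 (adjusted p = 0.0451). Rhog, which binds ELMO, stood at 0.32 (adjusted p = 0.0581), the ubiquitous Rac1 at 0.25 (0.132) and the scarce Rac3 at -0.23 (0.662). Neither Rac2 nor Cdc42 passed in any fit that left out a library. The edgeR adjusted p reached 0.111 for Rac2 (wild type 27 left out) and 0.139 for Cdc42 (knockout 40 left out). Fewer libraries by themselves weaken the test. In these fits the log2 fold change stayed at 0.39 to 0.49 for Rac2 and 0.34 to 0.41 for Cdc42.

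Of 17 tested RAC exchange factors outside the DOCK family, 4 rose (23.5%, beside 5.45% of all genes) and 13 did not pass. Trio, which carries exchange domains for RAC and RHOA, rose by 0.94 ± 0.12 (SE, log2; edgeR adjusted p = 0.00739) between means of 38.9 ± 4.90 and 74.3 ± 6.56 CPM, and its highest adjusted p without 1 library was 0.0253. Prex1, the RAC activator of neutrophils driven by phosphoinositides and G beta-gamma, rose by 0.62 (adjusted p = 0.0386). Tiam2 rose by 0.95 (adjusted p = 0.0427) and Farp1 by 2.84 from 0.196 CPM (adjusted p = 0.0242). Without library 40 the adjusted p of Prex1, Tiam2 and Farp1 was 0.128, 0.134 and 0.0890.

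Of 13 tested GTPase-activating proteins and guanine nucleotide dissociation inhibitors, which turn RAC off or hold it in the cytosol, 1 fell and 12 did not pass. The share that fell was 7.69%, beside 3.12% of all genes. The one that fell, the dissociation inhibitor gene Arhgdig, was near the limit of detection with 42 counts in wild type and 3 in the labelled knockouts (ratio 11.5, 95% counting interval 3.68 to 58.0, edgeR adjusted p = 0.0368). Without library 40 its adjusted p was 0.138. Arhgdib, the dissociation inhibitor of blood cells, had a mean of 1153 and 1347 CPM and a log2 fold change of 0.22 (adjusted p = 0.327).

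Of 15 tested adaptors and regulators of DOCK and ELMO, 3 rose (20%, beside 5.45% of all genes) and 12 did not pass. Pxn, which encodes the focal adhesion scaffold paxillin, rose from 303.7 ± 11.03 to 432.7 ± 56.8 CPM (log2 fold change 0.51, edgeR adjusted p = 0.0344), the SH2 and SH3 adaptor gene Nck1 rose by 0.64 (adjusted p = 0.0299) and Ankrd28 by 0.50 (adjusted p = 0.0457). The adaptors Crk and Crkl, which bind the tail of DOCK1, stood at 0.41 each (adjusted p = 0.183 and 0.0755), and Bcar1, the scaffold that joins CRK to DOCK1, was below the filter at 0.128 and 0.129 CPM. Pxn and Nck1 reached 0.102 and 0.101 without library 40, and Ankrd28 0.126 without wild-type library 27.

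Of 12 tested engulfment receptors and bridging proteins, Cd300lf rose, Mfge8 fell and 10 did not pass. The share was 8.33% in each direction, beside 5.45% of all genes higher and 3.12% lower. Cd300lf, a phosphatidylserine receptor of myeloid cells, was at 37.3, 63.8 and 55.2 CPM in wild type and 138.9, 149.2 and 190.4 CPM in the labelled knockouts, a rise of 1.61 ± 0.21 (SE, log2; edgeR adjusted p = 0.00900, at most 0.0314 with 1 library left out). Mfge8, whose product bridges dying cells to integrins upstream of DOCK1, was at 29.8, 49.1 and 28.0 CPM in wild type and 11.6, 19.1 and 13.0 CPM in the labelled knockouts (log2 fold change -1.29, adjusted p = 0.0327, and 0.124 without library 40). Both genes had groups that did not overlap, as had 33.7% of all genes tested. Adgrb1, the receptor BAI1 that binds ELMO, was at 37.2 and 38.7 CPM, and Stab2, Megf10 and Timd4 were below the filter.

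Downstream of RAC, 6 genes rose and 1 fell among 35 tested, while 5.45% of all genes rose and 3.12% fell. In the WAVE complex Cyfip2, the RAC-binding subunit, rose from 258.1 ± 6.71 to 403.3 ± 63.3 CPM (log2 fold change 0.64, edgeR adjusted p = 0.0216), Abi2 fell by 1.17 (adjusted p = 0.0307) and 7 of 9 did not pass. In the Arp2/3 complex Arpc5 and Actr3 rose by 0.43 and 0.38 (adjusted p = 0.0388 and 0.0480) and 8 of 10 did not pass. Of 16 other effectors, the RAC-activated kinase gene Pak1 rose from 64.1 ± 4.99 to 112.9 ± 17.7 CPM (log2 fold change 0.82, adjusted p = 0.0127), the CDC42-binding Cdc42ep3 rose by 0.72 (adjusted p = 0.0113) and the formin gene Fmnl1 by 0.54 (adjusted p = 0.0457), and 13 did not pass. Pak1 and Cdc42ep3 kept passing whichever library was left out, with highest adjusted p of 0.0428 and 0.0436. Without library 40 Abi2, Actr3, Arpc5 and Fmnl1 reached 0.107, 0.148, 0.122 and 0.143, and Cyfip2 reached 0.0642 without wild-type library 27.

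**Figure D5:**
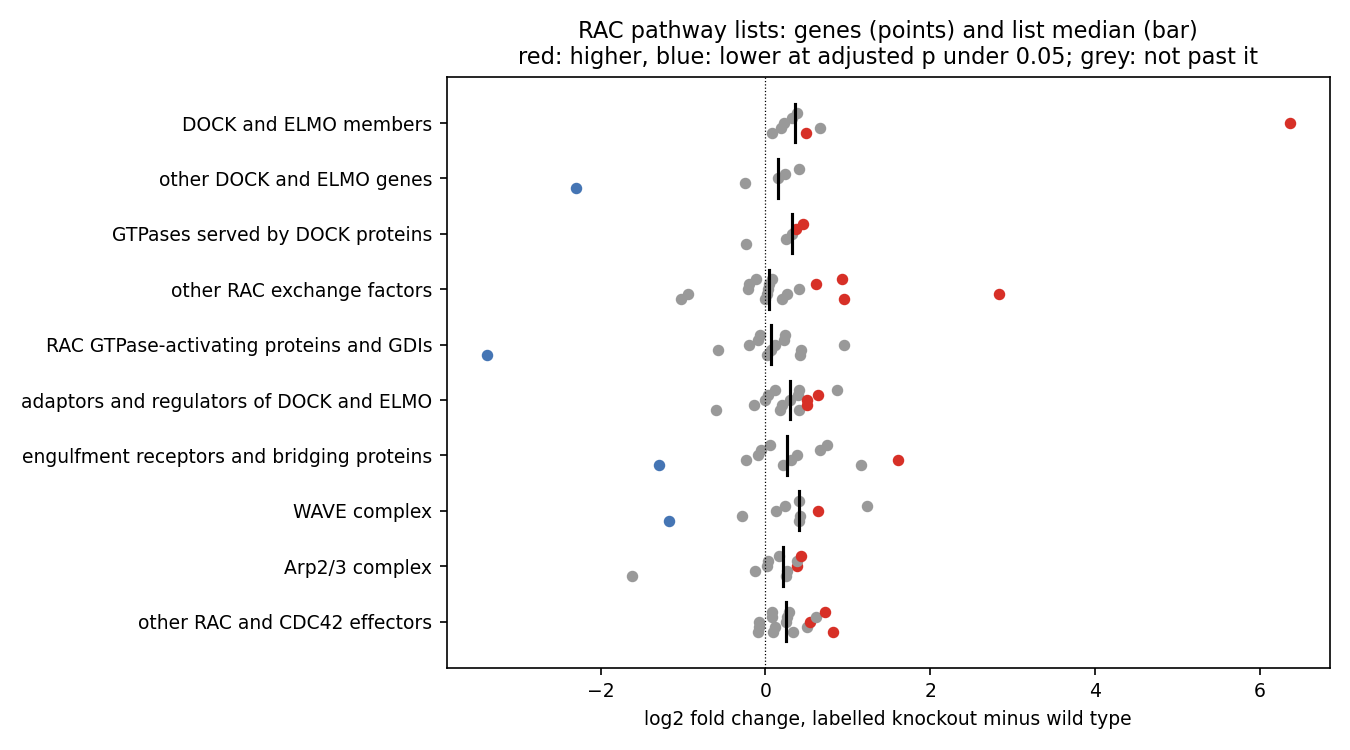
Log2 fold change of labelled knockout minus wild type (horizontal axis) for the tested genes of each list (rows); points are genes, black bars are list medians, and red and blue mark genes past the adjusted p of 0.05. Apart from Dock1 at 6.36, the genes that rose lie between 0.37 and 2.84, and the median of each list is between 0.05 and 0.41.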

How the data were processed

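RNA was measured in 6 bulk libraries, grouped by sample title into 3 labelled Rbm5 knockout and 3 labelled wild type. The deposited values are raw counts of reads, 1 whole number for each gene and library. The submitters' processing notes name Salmon, limma, GRCm38 and mm10 but no roles. Strand use, annotation and filters are not stated. What the deposited gene length counts is not given either, and it entered only the TPM values computed here. Without strand, reads shared by overlapping genes cannot be told apart.

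Genes were kept by filterByExpr (minimum count 10, minimum total 15), normalised with TMM factors, and compared by edgeR 4.0.16 under R 4.3.3 with glmQLFit (robust) and glmQLFTest, labelled knockout against wild type without covariates, with Benjamini-Hochberg adjustment over all 15963 genes. Each SE is the log2 fold change over the root of F, with t-based 95% intervals. The procedure was tested on simulated data. No libraries agreed within sampling noise (lowest chi-square per degree of freedom 45.4). Alternatives were other scalings and filters, no robust shrinkage, DESeq2 1.42.0, limma-voom (limma 3.58.1) and leaving out libraries. Promoters are from RefSeq, GRCm38.p6. The interval of a count ratio reflects counting error alone.

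The members and lists were chosen with earlier results of these data known. Named were the 13 family genes given here, called genes of each list (smallest p first, at most 4), the 5 profiles nearest to Dock1, and overlapping or neighboring genes. Other genes of the lists, single markers and the neighbors in the closing section were named after their values were seen.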

Additional observations from a re-analysis of the deposited data

How the results depend on the processing

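No paired analysis was possible because the labels give the groups no shared replicate numbers. With 3 libraries per group, the number of calls changed whichever single library was left out. A fit on fewer libraries is by itself a weaker test, so a lost call need not stem from the library left out. Leaving out 1 library gave 245 to 787 genes higher and 102 to 440 lower (870 and 498 with all), 1 to 2 members higher, and 5 to 10 RAC pathway genes higher and 0 to 2 lower. Leaving out wild-type libraries 27 and 29, so that the spread of the lone wild type is taken from the labelled knockouts, gave 305 and 148 genes, 1 member, and 4 and 1 pathway genes. DESeq2 gave 1553 and 1054 genes, 4 members, and 27 and 6 pathway genes. Without a filter 836 genes were lower. Upper-quartile factors left 1 member. Total counts left 1 member and 6 pathway genes higher, and moved the share of calls that were higher from 63.6% to 46.7%. With total counts Elmo1 stood at -0.044 and the median of all genes at -0.13 (-0.01 with TMM). Dock3 did not pass in limma-voom (adjusted p = 0.0567). In all fits 0 members were lower, and Dock1 was past the threshold. The share of Dock1 in the members' TPM moved by less than its SD when 1 labelled knockout was left out (0.886% to 1.12%) or CPM was used (0.811%).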

Other observations

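Of the 26 nearest tested protein-coding neighbors of these 13 DOCK and ELMO genes, 3 rose and 0 fell by edgeR's test over all genes, of which 5.45% rose and 3.12% fell. Rab3d, a RAB GTPase of secretory granules and the neighbor of Dock6, had a log2 fold change of 0.90 (adjusted p = 0.00929). Il13ra1, a receptor chain for interleukin 13 and the neighbor of the X-linked Dock11, stood at 1.32 (adjusted p = 0.0366). Aoah, the acyloxyacyl hydrolase that inactivates bacterial lipopolysaccharide and the neighbor of Elmo1, stood at 0.40 (adjusted p = 0.0484). Dmrt2, the neighbor of Dock8, had 137, 19 and 42 counts in wild type 25, 27 and 29 against 0, 4 and 8 in labelled knockouts 31, 32 and 40 and did not pass (adjusted p = 0.0685).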
